A study of Bos indicus with 12 samples.

Results

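The genes described here encode enzymes of glycolysis and the PFKFB regulators of that pathway in blood RNA of zebu cattle (Bos indicus). The list names 10 genes, PFKFB3, PFKFB4, HK1, PFKL, ALDOA, GAPDH, PGK1, ENO1, PKM and LDHA. They were selected on the comparison of Gir with Shweta Kapila cows, with its values known, so their levels by breed are given as a description, with no p-value for a member. Gene symbols were matched to the identifiers of the count table through a RefSeq gene table, and 8 of the 10 genes were found among 26229 identifiers. All 8 passed the filter on low counts, which left 15420 genes. PGK1 and LDHA had no identifier under these symbols and were not analysed here.

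Blood RNA was sequenced from 12 female cows, 3 high-yielding and 3 low-yielding Gir and 3 high-yielding and 3 low-yielding Shweta Kapila. Gir is an Indian dairy breed, and Shweta Kapila is an indigenous Indian breed as well. The cows were in lactation 2 or 3, and yield classes were set from lactation records within each breed, so that a high-yielding cow of one breed need not match one of the other in milk. The labels give neither age nor milk volume. The stated aim was to relate blood expression to milk production.

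Glycolysis converts glucose to pyruvate in the cytosol, with a net gain of ATP, and lactate dehydrogenase then turns pyruvate into lactate and regenerates NAD+. Phosphofructokinase catalyses the committed step and is switched on by fructose 2,6-bisphosphate, whose level is set by the bifunctional PFKFB enzymes. Neutrophils have few active mitochondria and draw most of their ATP from glycolysis, while resting lymphocytes rely more on oxidative metabolism. Mature red cells carry glycolytic enzymes but little RNA.

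Total counts ran from 14.2 to 20.7 M (M for mega-counts) in Gir and from 16.5 to 27.2 M in Shweta Kapila libraries, and the 3 largest were Shweta Kapila high 3, low 1 and low 2 (over 22 M each). A set of 37 short identifiers with no gene name took 9.00%, 13.1% and 11.7% of the counts in those 3 libraries, 6.20% to 8.70% in Gir and 4.54% to 5.57% in the other 3 Shweta Kapila libraries. The labels give mononuclear cells as the cell type but name a kit for whole blood. The neutrophil gene CSF3R ran from 930.0 to 2147 CPM in Gir and from 479 to 1912 CPM in Shweta Kapila, where CPM is a count per mega-count of the library after TMM scaling, which evens out library composition. In bulk blood RNA, fewer cells of a type and less RNA per cell cannot be told apart.

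PFKFB3 and PFKFB4, the enzymes that make the activator of phosphofructokinase, had the highest Gir to Shweta Kapila ratios of the 8 genes. PFKFB3, an isoform in which kinase activity far exceeds phosphatase activity, stood at 149, 204 and 276 CPM in high-yielding Gir, 227, 151 and 175 CPM in low-yielding Gir, 187, 103 and 117 CPM in high-yielding Shweta Kapila and 105, 95.4 and 183 CPM in low-yielding Shweta Kapila cows. The breeds overlapped, because Shweta Kapila high 1 and low 3 lay among the Gir cows, while the other 4 Shweta Kapila cows were below every Gir cow. The log2 fold change over both yield classes was 0.58 ± 0.23 (SE, n = 6 per breed), a ratio of 1.49. PFKFB3 differed by 0.63 ± 0.33 among high-yielding and by 0.53 ± 0.33 among low-yielding cows. Without the 3 largest libraries the PFKFB3 difference over both classes was 0.28 on the log2 scale. That setting keeps 3 Shweta Kapila cows, high 1, high 2 and low 3, so 1 low-yielding cow of that breed is left. High 1 and low 3 were the 2 highest cows of their breed for 6 of the 8 genes.

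PFKFB4, a second bifunctional isoform, stood at 88.1, 133 and 150.3 CPM in high-yielding Gir, 88.4, 62.8 and 88.0 CPM in low-yielding Gir, 121, 49.1 and 52.1 CPM in high-yielding Shweta Kapila and 45.4, 40.2 and 55.4 CPM in low-yielding Shweta Kapila cows. Shweta Kapila high 1 was the single cow of its breed inside the Gir range, and the other 5 lay below all 6 Gir cows. The log2 fold change of PFKFB4 was 0.75 ± 0.25 (SE, n = 6 per breed), a ratio of 1.68, with 0.74 ± 0.35 among high-yielding and 0.76 ± 0.35 among low-yielding cows. It was 0.55 without the 3 largest libraries.

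**Figure D1:**
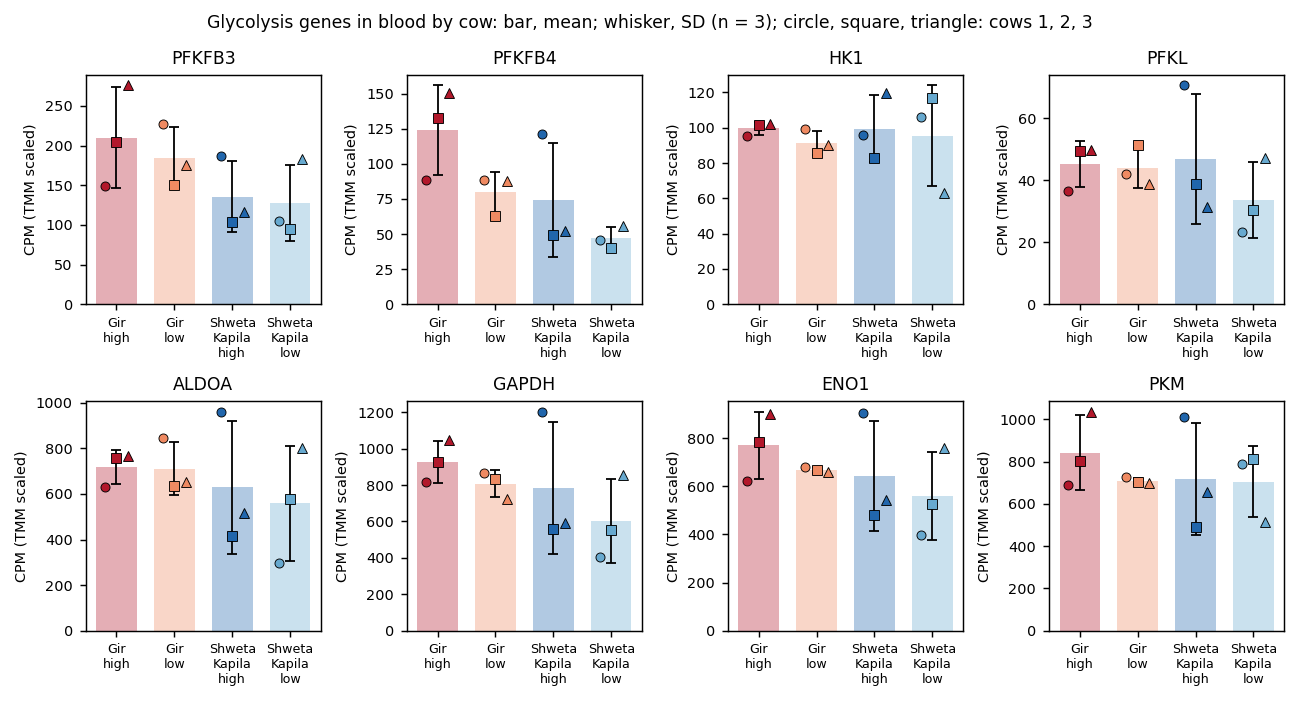
Level of 8 glycolysis and PFKFB genes in CPM (vertical axis, from 0, with its own scale in each panel) in the 4 groups of cows, with a bar for the mean, a whisker for the SD and a symbol for each of 3 cows. PFKFB4 is at 40.2 to 55.4 CPM in 5 of 6 Shweta Kapila cows and at 121 CPM in the other one.

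HK1 traps glucose in the cell as glucose 6-phosphate, the entry step of the pathway. HK1 stood at 95.3, 102 and 102 CPM in high-yielding Gir, 99.0, 85.6 and 90.3 CPM in low-yielding Gir, 96.0, 82.8 and 120.0 CPM in high-yielding Shweta Kapila and 106, 117 and 63.1 CPM in low-yielding Shweta Kapila cows. The 6 Gir cows lay inside the Shweta Kapila range, and the 3 highest Shweta Kapila cows were those with the 3 largest libraries. HK1 was the gene of the 8 whose breed difference was below 0 (−0.03 ± 0.17, SE, n = 6 per breed), and without those 3 libraries the difference was 0.36.

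PFKL is the liver-type subunit of phosphofructokinase, also found in leukocytes. PFKL stood at 36.6, 49.4 and 49.7 CPM in high-yielding Gir, 41.9, 51.3 and 38.9 CPM in low-yielding Gir, 70.6, 38.7 and 31.2 CPM in high-yielding Shweta Kapila and 23.3, 30.3 and 47.2 CPM in low-yielding Shweta Kapila cows. Its lowest and highest values were both in Shweta Kapila, and every Gir cow lay between them. The breed difference of PFKL was 0.17 ± 0.24 over both classes (SE, n = 6 per breed) and −0.17 without the 3 largest libraries. By yield class it was −0.05 ± 0.33 among high-yielding and 0.39 ± 0.34 among low-yielding cows.

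ALDOA, the aldolase that splits the phosphorylated 6-carbon sugar, stood at 633, 759 and 767 CPM in high-yielding Gir, 847, 636 and 651 CPM in low-yielding Gir, 961, 414 and 515 CPM in high-yielding Shweta Kapila and 298, 579 and 802 CPM in low-yielding Shweta Kapila cows. The ratio of the highest to the lowest cow was 1.34 in Gir and 3.22 in Shweta Kapila. ALDOA differed by 0.27 ± 0.26 between the breeds (SE, n = 6 per breed) and by −0.04 without the 3 largest libraries.

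GAPDH, which oxidises glyceraldehyde 3-phosphate and reduces NAD+, stood at 816, 926 and 1047 CPM in high-yielding Gir, 865, 832 and 723 CPM in low-yielding Gir, 1203, 559 and 593 CPM in high-yielding Shweta Kapila and 404, 554 and 856 CPM in low-yielding Shweta Kapila cows. Shweta Kapila high 1 was above every Gir cow, low 3 was among them, and the other 4 were below every Gir cow. ENO1, the enolase that forms phosphoenolpyruvate, showed the same pattern, with 624, 785 and 902 CPM in high-yielding Gir, 683, 669 and 658 CPM in low-yielding Gir, 906, 481 and 543 CPM in high-yielding Shweta Kapila and 397, 528 and 759 CPM in low-yielding Shweta Kapila cows. The breed difference was 0.33 ± 0.23 for GAPDH and 0.26 ± 0.21 for ENO1 (log2, SE, n = 6 per breed). Without the 3 largest libraries, which leaves Shweta Kapila high 1, high 2 and low 3, the difference was 0.01 for GAPDH and −0.00060 for ENO1.

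PKM, the pyruvate kinase that makes pyruvate and ATP at the end of the pathway, stood at 688, 801 and 1036 CPM in high-yielding Gir, 727, 703 and 699 CPM in low-yielding Gir, 1011, 491 and 655 CPM in high-yielding Shweta Kapila and 789.6, 815 and 514 CPM in low-yielding Shweta Kapila cows. Here Shweta Kapila low 1 and low 2, which were low for GAPDH, were among the higher cows, and low 3 was among the lower ones. The breed difference of PKM was 0.12 ± 0.20 (SE, n = 6 per breed) and 0.33 without the 3 largest libraries. Mammalian genomes carry processed copies of GAPDH, ENO1 and other glycolytic genes, and how the counting divided reads among such copies is not given in the sources used here.

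**Figure D2:**
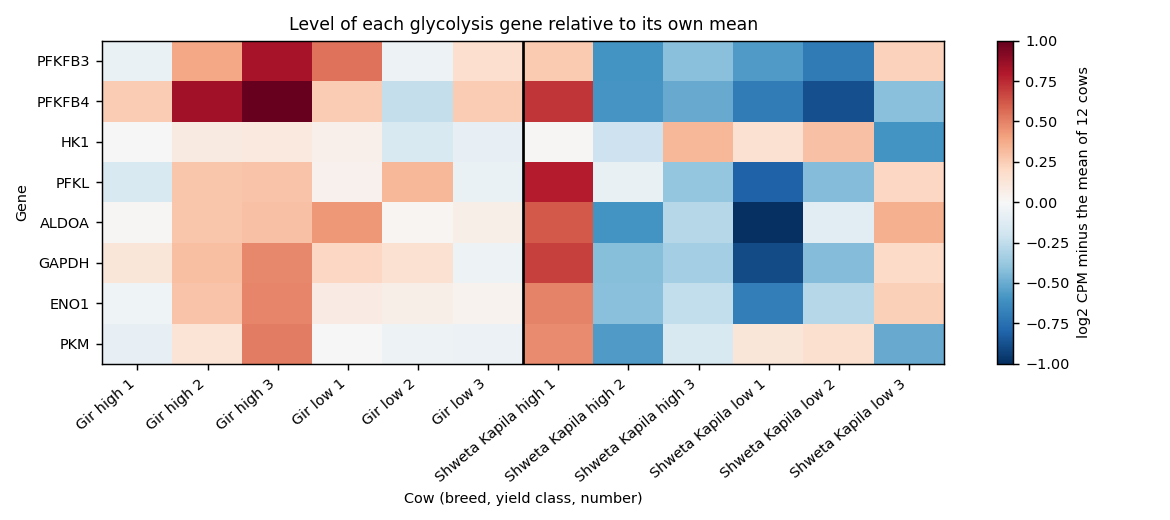
Log2 CPM of each gene (rows) in each of 12 cows (columns, Gir to the left of the line), as the difference from the mean of that gene over the cows (colour scale from −1 to 1). Shweta Kapila high 1 and low 3 are the 2 highest cows of their breed for 6 of the 8 genes, and the rows of HK1 and PKM differ from the others in Shweta Kapila.

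For 7 of the 8 genes the log2 fold change of Gir over Shweta Kapila was above 0, and for 6 the median of 6 Gir cows was above that of 6 Shweta Kapila cows. The median log2 fold change of the 8 was 0.26, against −0.04 over all 15420 genes, of which 45.1% were above 0. Without the 3 largest libraries, with 3 Shweta Kapila cows left, 5 of the 8 were above 0. The 2 breeds overlapped for each of the 8 genes, as they did for all but 0.603% of the genes tested. In this comparison edgeR's quasi-likelihood test with Benjamini-Hochberg adjustment called 0 genes of 15420 (0%, with 9.57% at an unadjusted p under 0.05). DESeq2 called 1.26% of all genes, and limma-voom with sample weights called 16.6%. As the 8 genes were chosen on this comparison, nothing about them is read from these counts.

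**Figure D3:**
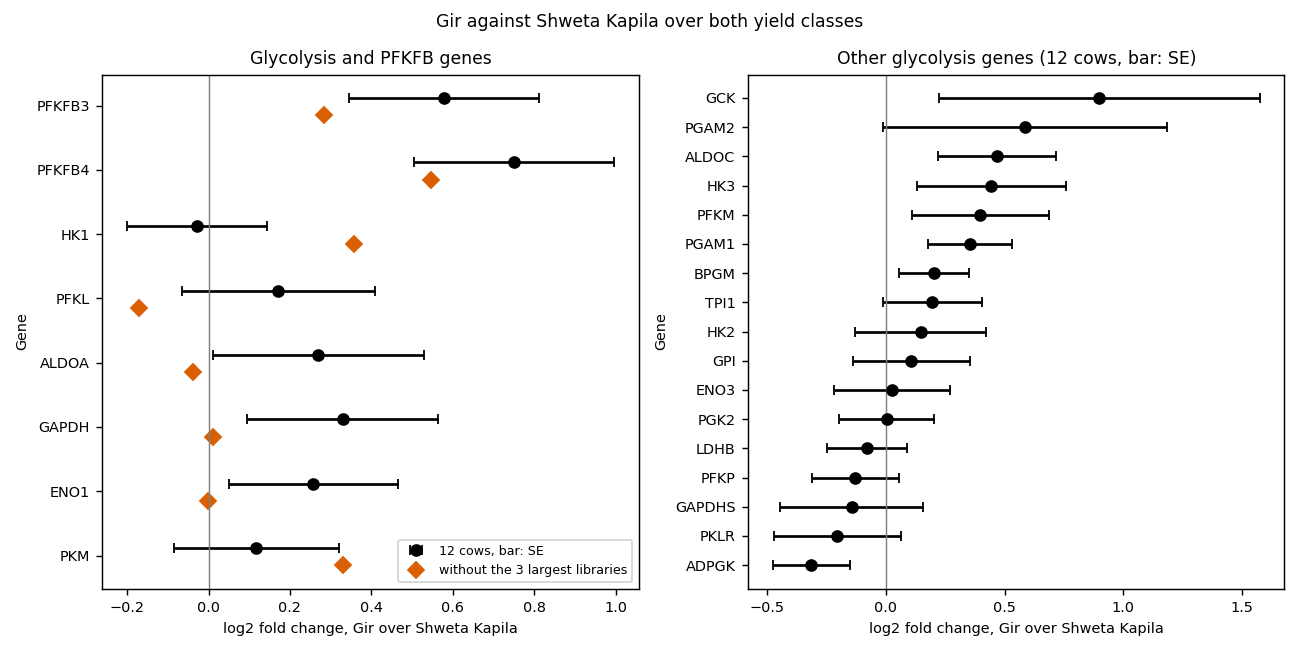
Log2 fold change of Gir over Shweta Kapila (horizontal axis) for the 8 genes (left) and for 17 other glycolysis genes (right). Circles with bars are estimates with SE from 12 cows, and diamonds are estimates without the 3 largest libraries, which lie below the circles for 6 of the 8 genes and above them for HK1 and PKM.

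The Gir cows resembled each other more than the Shweta Kapila cows did. The SD of log2 CPM was larger in Shweta Kapila for 8 of the 8 genes, for example 0.18 in Gir against 0.55 in Shweta Kapila for GAPDH, 0.10 against 0.35 for HK1 and 0.35 against 0.43 for PFKFB3. The same held for 81.7% of all genes tested, with a median SD of 0.30 in Gir and 0.56 in Shweta Kapila. Shweta Kapila high 1 was the highest cow of its breed for 7 of the 8 genes, and Gir high 3 the highest of its breed for 6. Gir high 3 also had the highest summed level of 9 erythroid genes, 633 CPM against 57.4 to 171 CPM in the other 5 Gir cows, of which 528 CPM was ALAS2, the first enzyme of heme synthesis in red cell precursors. Of 19 erythroid genes listed, SLC4A1, AHSP, HBM and RHAG were among those under the count filter, and the part of this in the 6 genes was not tested.

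High-yielding cows were compared with low-yielding cows within each breed, which was not the comparison the genes were mainly chosen on, although its values were known when they were. PFKFB4 had the highest ratio of the 8 genes in both breeds. Its mean was 124 ± 32.0 CPM in the 3 high-yielding and 79.7 ± 14.7 CPM in the 3 low-yielding Gir cows (± SD, n = 3), and 74.1 ± 40.8 CPM in the 3 high-yielding and 47.0 ± 7.71 CPM in the 3 low-yielding Shweta Kapila cows. The log2 fold change was 0.63 ± 0.35 in Gir (SE, edgeR quasi-likelihood adjusted p = 1), 0.66 ± 0.35 in Shweta Kapila (adjusted p = 0.655) and 0.65 ± 0.25 averaged over both breeds (unadjusted p = 0.0214, adjusted p = 0.874). The classes overlapped in each breed, since Gir high 1 was level with Gir low 1 and low 3, and Shweta Kapila low 3 was above high 2 and high 3. Without Shweta Kapila high 1 the difference was 0.12 in that breed and 0.37 over both.

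For the other 7 genes the yield difference was above 0 as well, without passing the test. In Gir it ran from 0.02 ± 0.37 for ALDOA to 0.25 ± 0.29 for PKM (edgeR adjusted p = 1 for each). In Shweta Kapila PFKL stood at 0.48 ± 0.34 (edgeR adjusted p = 0.658) and GAPDH at 0.38 ± 0.33 (adjusted p = 0.693), and PKM at 0.03 ± 0.29 (adjusted p = 0.978). The 8 genes were thus above 0 in Gir, in Shweta Kapila and over both breeds, beside 47.4%, 48.3% and 48.5% of all genes, but without the 3 largest libraries 5 of 8 were above 0 in Shweta Kapila and 6 of 8 over both breeds. Of the 8 genes 6 vary together over the cows, so the 8 are not separate observations.

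No gene was called for yield by edgeR's quasi-likelihood test, in Gir, in Shweta Kapila or over both breeds (0 of 15420, 0%), and 1.89%, 6.98% and 4.13% of genes had an unadjusted p under 0.05. The high-yielding and low-yielding cows overlapped for each of the 8 genes in both breeds, where 10.2% of all genes had no overlap in Gir and 7.21% in Shweta Kapila. Limma-voom with sample weights called 1 of the 8 over both breeds, PFKFB4 (0.61 ± 0.18, adjusted p = 0.0492), where it called 8.15% of all genes. It called none of the 8 in Gir, where it called 0.00649% of all genes (PFKFB4 adjusted p = 0.399), or in Shweta Kapila, where it called 25.3% (PFKFB4 adjusted p = 0.185).

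**Figure D4:**
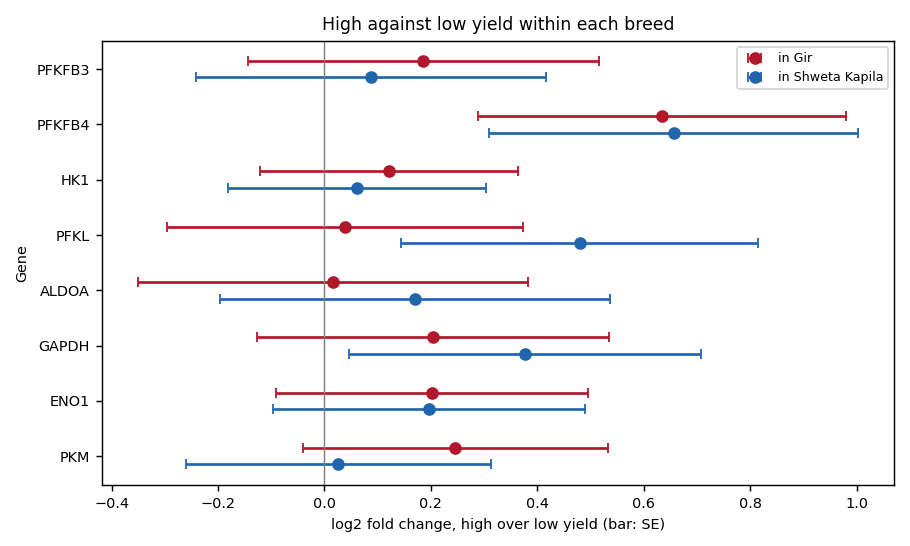
Log2 fold change of high-yielding over low-yielding cows (horizontal axis, bar for SE) in Gir (upper point of each pair) and in Shweta Kapila (lower point) for the 8 genes. All points lie above 0, from 0.02 for ALDOA in Gir to 0.66 for PFKFB4 in Shweta Kapila, and most bars cross 0.

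The yield difference in Gir minus that in Shweta Kapila was −0.02 ± 0.49 for PFKFB4, −0.44 ± 0.47 for PFKL and 0.22 ± 0.41 for PKM (log2, SE; edgeR adjusted p = 0.999, 0.955 and 0.963). Of the 8 genes 4 were above 0 in this comparison, and the breeds were not shown to differ in the yield difference of any of them. No gene of 15420 was called (0%, with 3.81% at an unadjusted p under 0.05), and limma-voom with sample weights called 8.48% of all genes and none of the 8.

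Over the 12 cows 6 of the 8 genes varied together, namely PFKFB3, PFKFB4, PFKL, ALDOA, GAPDH and ENO1. The 15 pairs among them had Pearson correlations of log2 CPM of 0.686 to 0.975 over all cows, 0.248 to 0.885 within Gir and 0.689 to 0.989 within Shweta Kapila. As the genes were chosen on the difference between breeds, the test was made with the mean of each breed subtracted and with cows permuted within breed, an alternative chosen after the data were seen, with adjustment over 28 pairs of the 8 genes. Of the 15 pairs 14 passed it, all with a positive r, and PFKFB4 with ALDOA did not. By ranks within breed 11 of the 14 passed, and 3 pairs of PFKL (with PFKFB3, PFKFB4 and ALDOA) did not. With breed means subtracted and the 2 farthest cows left out, r of these 3 was 0.433, 0.262 and 0.388. They thus rest in part on those cows, as other passing pairs do. PFKFB4 with GAPDH fell from 0.779 to 0.413 and PFKFB4 with ENO1 from 0.789 to 0.461. Of the passing pairs only PFKFB3 with PFKFB4 rose, from 0.783 to 0.819. The 3 pairs of PFKL had an r of 0.370, 0.248 and 0.267 within Gir and 0.836, 0.869 and 0.867 within Shweta Kapila. No pair outside these 15 passed.

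GAPDH and ENO1 were closest, with r = 0.975 over all cows, 0.885 within Gir and 0.989 within Shweta Kapila. With breed means subtracted r was 0.970 (permutation p = 9.0e-05 and 0.00252 once adjusted; rank correlation 0.943, permutation p = 0.00018 and 0.00504 once adjusted; n = 12), and 0.936 without the 2 cows farthest from the GAPDH median. PFKFB3 and PFKFB4 had r = 0.873 over all cows, 0.779 within Gir and 0.785 within Shweta Kapila. With breed means subtracted it was 0.783 (permutation p = 0.00121 and 0.00572 once adjusted; rank correlation 0.857, permutation p = 0.00218 and 0.0153 once adjusted), and 0.819 without the 2 farthest cows. All these values share library and depth.

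HK1 and PKM stood apart from that group over all 12 cows and within Shweta Kapila, but less so within Gir. In Gir the r of ENO1 with PKM was 0.969, and in Shweta Kapila it was 0.213, while over all 12 cows it was 0.427. After subtraction of breed means it was 0.365 (permutation p = 0.363 and 0.509 once adjusted; rank correlation 0.657, permutation p = 0.0370 and 0.0798 once adjusted; 0.380 without the 2 farthest cows). HK1 with GAPDH gave 0.713 within Gir and −0.412 within Shweta Kapila, and −0.274 over all cows. After breed means were subtracted it was −0.315 (permutation p = 0.506 and 0.615 once adjusted; rank correlation 0.229, permutation p = 0.518 and 0.537 once adjusted; −0.090 without the 2 farthest cows), so that Pearson's r and the rank correlation had opposite signs. The difference between the breeds in these correlations was not tested. The Shweta Kapila cows with the 3 largest libraries had 106 to 120.0 CPM of HK1 and 404 to 593 CPM of GAPDH.

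Library size and the share of counts on the unnamed identifiers were set beside the 8 genes. Over all cows GAPDH had r = −0.662 with the log2 total count and −0.692 with that share, and HK1 had 0.579 and 0.603. The r of PFKL with that share was −0.811 over all cows, −0.293 within Gir and −0.862 within Shweta Kapila. With breed means subtracted it was −0.807 (permutation p = 0.0160 and 0.255 once adjusted over 16 relations; rank correlation −0.714, permutation p = 0.0202 and 0.323 once adjusted; −0.679 without the 2 farthest cows). None of the 16 passed after adjustment, and the part of these library properties in the correlations between genes was not tested.

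Marker genes of blood cell types were summed for each cow. The 14 of 20 neutrophil genes past the filter, with CSF3R and S100A9 among the most abundant, summed to 3734, 4609 and 6390 CPM (lowest, median and highest) in Gir and to 2451, 3383 and 5967 CPM in Shweta Kapila. The r of the neutrophil sum with PFKFB4 was 0.902 over all cows, 0.968 within Gir and 0.803 within Shweta Kapila. With breed means subtracted and cows permuted within breed it was 0.857 (permutation p = 0.00214 and 0.120 once adjusted over 56 relations of 7 marker sums with the 8 genes; rank correlation 0.714, permutation p = 0.0197 and 0.367 once adjusted; 0.636 without the 2 farthest cows; n = 12). None of the 56 passed after adjustment in that test. Permutation of cows over both breeds leaves in the breed difference on which PFKFB4 was chosen, so nothing is read from that setting. The neutrophil granule and surface genes LTF, PGLYRP1 and CD177 averaged under 1 CPM. The part of neutrophil content in the PFKFB4 values was not tested.

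**Figure D5:**
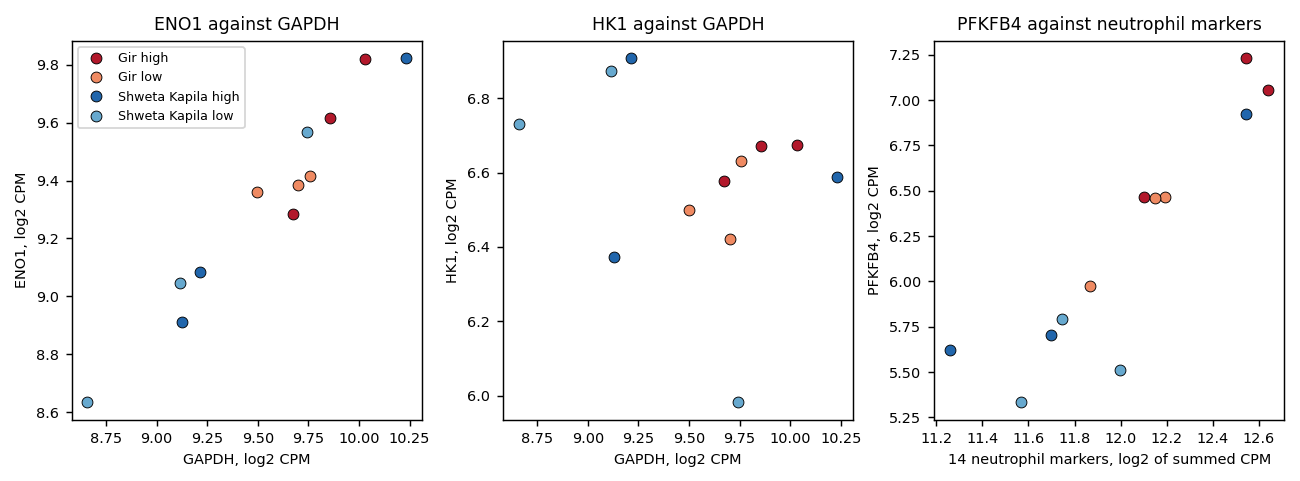
Levels of 12 cows, coloured by breed and yield class, for ENO1 against GAPDH, HK1 against GAPDH (log2 CPM on both axes) and PFKFB4 (log2 CPM) against the log2 of the summed CPM of 14 neutrophil markers. ENO1 is higher where GAPDH is higher (r = 0.975 over all cows), and PFKFB4 where the neutrophil sum is higher (r = 0.902 over all cows), while HK1 and GAPDH do not line up over all cows (r = −0.274).

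The neutrophil sum had r = 0.784 with PFKFB3 over all cows, 0.740 within Gir and 0.640 within Shweta Kapila. After subtraction of breed means it was 0.672 (permutation p = 0.0244 and 0.342 once adjusted; rank correlation 0.771, permutation p = 0.00955 and 0.267 once adjusted; 0.568 without the 2 farthest cows). With PKM the neutrophil sum had r = 0.753 over all cows, 0.734 within Gir and 0.776 within Shweta Kapila. The 6 of 13 monocyte genes past the filter, led by CTSS, CD68 and CSF1R, summed to 615 to 1207 CPM in Gir and 544 to 1375 CPM in Shweta Kapila. CTSS alone averaged 511 CPM over all cows. Its log2 fold change of Gir over Shweta Kapila was −0.32 ± 0.27 (SE), while the other 5 genes were above 0. The sum of the 6 genes had r = 0.701 with HK1 over all cows, 0.736 within Gir and 0.759 within Shweta Kapila. After breed means were subtracted it was 0.708 (permutation p = 0.0194 and 0.342 once adjusted; rank correlation 0.800, permutation p = 0.00621 and 0.267 once adjusted; 0.688 without the 2 farthest cows). NK and cytotoxic genes (10 of 14 past the filter, led by CCL5, GZMA and PRF1) summed to 371 to 970.3 CPM in Gir and to 562 to 3872 CPM in Shweta Kapila, with the highest value in Shweta Kapila high 1. T cell genes (16 of 16, led by CD3E, CD3D and CD2) summed to 3285 to 5011 CPM in Gir and to 3269 to 6822 CPM in Shweta Kapila. The part of these cells in the breed values was not tested.

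The genes with the most similar pattern over the 12 cows, by Pearson's r of log2 CPM among named genes outside the 8, were PEAK3 (0.946), CNDP2 (0.935) and FGR (0.930) for PFKFB3. For PFKFB4 they were MAP3K3 (0.973), DEF8 (0.973) and FGR (0.963), where FGR is a Src family kinase of myeloid cells and MAP3K3 a kinase of the MAP kinase cascade. For GAPDH they were ARF3 (0.983), the complement regulator properdin CFP (0.982) and the sorting adaptor GGA1 (0.980).

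Of the other enzymes of the pathway and their tissue isoforms, 21 genes were listed and 17 passed the filter. In Gir against Shweta Kapila cows 12 of the 17 were above 0 and 5 below, with a median log2 fold change of 0.15, and none passed the edgeR test. The 4 of lowest p were PGAM1, the phosphoglycerate mutase of most tissues (0.35 ± 0.18, SE, edgeR adjusted p = 0.551), the ADP-dependent glucokinase ADPGK (−0.31 ± 0.16, adjusted p = 0.558), the aldolase ALDOC (0.47 ± 0.25, adjusted p = 0.567) and the myeloid hexokinase HK3 (0.44 ± 0.31, adjusted p = 0.655). HK3 stood at 235, 265 and 332 CPM (lowest, median and highest) in Gir and 71.1, 174 and 343 CPM in Shweta Kapila cows. The testis-type PGK2, a retrogene copy of PGK1, stood at a mean of 36.2 ± 4.49 CPM in Gir and of 36.0 ± 9.87 CPM in Shweta Kapila cows (± SD, n = 6 per breed), and LDHB, the lactate dehydrogenase of oxidative tissues, at 415 ± 55.9 CPM in Gir and 438 ± 84.4 CPM in Shweta Kapila. ENO2 and HKDC1 were among those under the filter. Limma-voom with sample weights called 5 of the 17 between breeds, where it called 16.6% of all genes. By yield none of the 17 passed the edgeR test in either breed or over both.

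PFKFB2, another bifunctional isoform, differed by 0.42 ± 0.27 between Gir and Shweta Kapila (edgeR adjusted p = 0.628). The enzymes that work against PFKFB and phosphofructokinase were at −0.20 ± 0.28 for TIGAR, which breaks down fructose 2,6-bisphosphate (adjusted p = 0.831), and −0.30 ± 0.29 for FBP1, the phosphatase of gluconeogenesis (adjusted p = 0.740, edgeR). PFKFB1 and FBP2 were under the filter.

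Neighbouring pathways were counted in the same fit, and no gene of them passed the edgeR test between breeds. Of 13 genes of pyruvate entry and pyruvate dehydrogenase 4 were above 0 and 9 below (median −0.11). MPC1, a subunit of the mitochondrial pyruvate carrier, stood at 14.9, 18.4 and 20.6 CPM (lowest, median and highest) in Gir and 21.5, 22.3 and 36.1 CPM in Shweta Kapila, without overlap, as did 0.337% of all genes with Gir below (log2 fold change −0.50 ± 0.16, SE, edgeR adjusted p = 0.368). The pyruvate dehydrogenase kinase PDK2 was at 0.75 ± 0.29 (adjusted p = 0.457, edgeR).

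Of 14 targets of hypoxia-inducible factor outside glycolysis 5 were above 0 and 9 below in Gir (median −0.10). The collagen prolyl hydroxylase subunit P4HA2 stood at 2.77, 3.26 and 3.72 CPM in Gir and 3.82, 7.67 and 10.2 CPM in Shweta Kapila cows, again without overlap (−1.11 ± 0.24, edgeR adjusted p = 0.216; DESeq2 adjusted p = 0.00257). VEGFA, the endothelial growth factor, was at −0.94 ± 0.27 (edgeR adjusted p = 0.316). Among the 5 targets above 0 were HMOX1 at 0.97 ± 0.31, CA9 at 0.68 ± 0.25 and NDRG1 at 0.66 ± 0.22 (edgeR adjusted p = 0.343, 0.419 and 0.385). In the hypoxia-inducible factor pathway itself, 5 of 7 were above 0 (median 0.01). EPAS1, the HIF alpha subunit of endothelium, was at 0.53 ± 0.22 and its hydroxylase HIF1AN at 0.24 ± 0.15 (edgeR adjusted p = 0.487 and 0.619). The EPAS1 difference was 1.05 ± 0.32 among high-yielding and 0.01 ± 0.32 among low-yielding cows.

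Glucose and lactate transport genes were split, with 4 of 8 above 0 and 4 below. The monocarboxylate transporters SLC16A7 (0.97 ± 0.64, at 1.03 CPM or less) and SLC16A3 (0.34 ± 0.40) had the lowest p in this list (edgeR adjusted p = 0.629 and 0.784). Of 6 pentose phosphate genes 2 were above 0, and RPIA, the ribose phosphate isomerase, was at −0.36 ± 0.16 (edgeR adjusted p = 0.495). Of 10 glycogen genes 5 were above 0, with UGP2, which makes UDP-glucose, at −0.30 ± 0.23 and PGM1 at 0.16 ± 0.16 (edgeR adjusted p = 0.668 and 0.758).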

How the data were processed

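Expected counts per gene, in a table deposited by the authors, were rounded to whole numbers; 57.0% of the values are not whole (tolerance 1e-06). Trimmomatic and FastQC are named, without versions, per the submitters' processing notes, and for the aligner, counting program, build and annotation the record is: not given in the sources used here. Library preparation removed ribosomal RNA and kept strand, per the labels' protocols. Symbols came from a RefSeq gene table of assembly NIAB-ARS_B.indTharparkar_mat_pri_1.0 (22754 identifiers named, 86.8%). No gene length was used, so levels are compared between cows only.

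Genes were kept by filterByExpr (minimum count 10, minimum total 15) in edgeR 4.0.16 under R 4.3.3, scaled by TMM and fitted by robust quasi-likelihood with 4 group means over 12 cows. Tests were 2-sided with Benjamini-Hochberg adjustment over 15420 genes at 0.05. With 14.2 to 27.2 M counts per library, 10 counts correspond to between 0.368 and 0.704 CPM. The titles number the libraries of a group as replicates, and each was taken as a separate cow. The p-values thus set a difference against the spread between cows. DESeq2 1.42.0 and limma 3.58.1 were alternatives, beside other scalings, no filter, 2 covariates, a replicate block and cows left out. The self-check of the fit used simulated counts. Log2 CPM had a prior count of 2. Correlations used 100000 permutations, within breed after subtraction of breed means, in Python 3.11.15 with NumPy 2.4.6 and pandas 2.3.3, and plots matplotlib 3.10.9.

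The members, the gene lists and the tests were chosen with earlier results of these data known. Named were all members found, of the other glycolysis genes the 4 of lowest p between breeds, of each other metabolic list the 2 of lowest p, the 3 nearest patterns of PFKFB3, PFKFB4 and GAPDH, and the 3 most abundant genes of a marker list; some of these are not reported here. Genes named as absent from a test, beside PGK2 and LDHB as relatives of the 2 genes not analysed, were chosen after their values were seen. The same holds for HMOX1, CA9 and NDRG1.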

Additional observations from a re-analysis of the deposited data

Results flagged for a closer look

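In Shweta Kapila, PFKFB4 was flagged because high 1 (121 CPM) lay far above the other 5 cows (40.2 to 55.4 CPM), with a gap to the next cow that was 0.813 of the whole range. In Gir, PKM was flagged because high 3 (1036 CPM) lay above the other 5 cows (688 to 801 CPM), with a gap of 0.676 of the range. Both gaps exceed Dixon's 95% critical value for 6 samples. Of 16 groups, made of 8 genes in 2 breeds, 2 were flagged, and chance flags about 1 in 20. No gene of the 8 had a difference between breeds in its yield contrast that passed the test.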

How the results depend on the processing

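Limma-voom with sample weights changed counts of calls. Between the breeds it called 4 of the 8 members (16.6% of all genes), and among low-yielding cows alone 4 of the 8 (5781 of 15420 genes); the genes were chosen on the breed comparison, so nothing is read from either count. By yield over both breeds it called 1 member (8.15% of all genes). Of the 17 other glycolysis genes it called 5 between the breeds (16.6%), 2 by yield in Shweta Kapila (25.3%), 1 over both breeds (8.15%) and 2 for the difference of the yield contrasts (8.48%), where edgeR called 0. For the 5 comparisons with a test, the other 98 counts under these settings, and all 120 counts with a cow left out, were 0 as in the reported fit.

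Some yield values changed sign, though none was called with either sign. With voom in Shweta Kapila HK1 was −0.34, ALDOA −0.16 and PKM −0.46, and over both breeds HK1 −0.10, ALDOA −0.051 and PKM −0.12. With the share of the unnamed identifiers as covariate, PFKFB3 was −0.23, PFKL −0.050, ALDOA −0.27, GAPDH −0.076 and ENO1 −0.13 in Shweta Kapila, PFKFB3 −0.0013 and ALDOA −0.10 over both breeds, and the difference of the yield contrasts 0.25 for PFKFB4, 0.14 for PFKL and −0.041 for PKM. Without the 3 largest libraries, PFKFB3 was −0.34, ALDOA −0.23 and ENO1 −0.14 in Shweta Kapila, PFKFB3 −0.076 and ALDOA −0.11 over both breeds, and the difference of the contrasts 0.026 for PFKFB4 and −0.29 for PKM; low-yielding Shweta Kapila is then 1 cow, assumed to vary like the others. With total count scaling PFKL was −0.0048 and ALDOA −0.021 in Gir. The PFKFB4 difference of the contrasts was 0.010 with DESeq2, 0.010 with RLE factors, 0.23 with voom and 0.081 with the total count as covariate. Between breeds, SLC16A3 was −0.31 and UGP2 0.26 without the 3 largest libraries, and UGP2 0.019 with the total count as covariate. The cause was not tested.

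With a cow left out in turn, signs changed in Gir for ALDOA (−0.058 to 0.16), PFKFB3 (−0.061 to 0.38) and PFKL (−0.043 to 0.17). In Shweta Kapila they changed for ALDOA (−0.26 to 0.52), ENO1 (−0.12 to 0.48), GAPDH (−0.060 to 0.71), HK1 (−0.16 to 0.24), PFKFB3 (−0.20 to 0.44) and PKM (−0.30 to 0.24). Over both breeds they changed for ALDOA (−0.12 to 0.27), HK1 (−0.021 to 0.18), PFKFB3 (−0.0100 to 0.31) and PKM (−0.027 to 0.24), and for the PFKFB4 difference of the contrasts (−0.25 to 0.51).

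Cows with the same replicate number mostly did not deviate together (3 of 18 pairs had a correlation over 0.1, range −0.56 to 0.34). With 3 cows per group this check cannot exclude a pairing by number. With the replicate block the PFKFB4 yield difference over both breeds was 0.65 (edgeR adjusted p = 0.933), its difference of the contrasts 0.058, and no member was called (0 of 8). The share of promoters with a motif was not run, as no promoter sequence was used. The lowest value of a member was 23.3 CPM, and the part of library size in the members' values was not tested. With cows permuted over both breeds, 15 of 28 pairs of members and 1 of 56 relations with marker sums passed after adjustment by Pearson's r, against 14 and 0 with cows permuted within breed. Permutation over both breeds leaves in the breed difference on which the genes were chosen, so nothing is read from its counts. Within breed 0 of 56 relations with marker sums passed by ranks.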
